A study of Mus musculus with 18 samples.

Results

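The transcripts of 10 neuropeptide precursor genes (Pomc, Nts, Tac2, Tac1, Avp, Oxt, Npy, Cartpt, Gal and Penk) were followed in sorted medullary thymic epithelial cells (mTECs) of the mouse. The members were named genes, found by symbol in the deposited count tables, and all 10 were present among the 49585 genes counted for Aire and Fezf2 and the 21969 counted for Chd4. RNA-seq of 18 libraries in 6 groups of 3 compared mTECs labelled Aire KO, Fezf2 KO and Chd4 conditional knockout (cKO), each with its own control group. Aire KO, Fezf2 KO and their separate wild-type (WT) groups were of strain C57BL/6, and count columns of the Fezf2 KO read Fezf2cKO, so the sources differ on whether that knockout was conditional. Floxed Chd4 was shared by control and cKO mice, both C57BL/6x129P2. Only the cKO also carried Foxn1-Cre, a recombinase driven by a gene of thymic epithelium in general and not of mTECs alone. No source used here gives ages or sexes. Libraries of a group are called A, B and C, and levels are in CPM, counts scaled to the normalised library size.

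A neuropeptide precursor is a secreted protein that is cut by prohormone convertases, and in many cases amidated, to release short signalling peptides that are stored in dense-core granules and act on G protein-coupled receptors. Most are known as products of neurons and endocrine cells. Medullary thymic epithelial cells transcribe many genes of peripheral tissues at low levels and display their products to developing T cells, and Aire, Fezf2 and the chromatin remodeller Chd4 are regulators of this transcription.

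All 10 mTEC markers, among them Epcam, Krt5, Cd80 and H2-Aa, were tested in all 3 comparisons. Libraries held 3571570 to 17220157 exon reads, the deepest being Chd4 cKO library B. Fezf2 was at 570 to 735 CPM in its WT and at 8.44 to 23.4 CPM in the Fezf2 KO. Chd4 was at 55.4 to 66.5 CPM in its control against 24.6 to 30.2 CPM in the cKO. Aire was at 1810 to 2302 CPM in its WT and at 3737 to 4088 CPM in the Aire KO-labelled libraries. No source used here says which part of Aire was deleted, so reads over the whole gene do not check that label. Library B of the WT for Fezf2 stood apart: its counts differed from those of libraries A and C with a chi-square per degree of freedom of 35.5 and 31.9, against 3.94 to 9.78 for the other pairs of libraries of a group. All 10 precursor genes were highest in that library among the 3 of its group, so results of the Fezf2 comparison are given with and without it.

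In the control mTECs the precursors ranged from among the higher transcripts to near the detection limit. Per kilobase of exon, Nts stood highest in the WT for Aire at 96.3 ± 14.1 CPM per kb (SD, n = 3), above 96.1% of the 14949 genes tested there, and its range met that of Npy at 86.3 ± 5.67 CPM per kb. Gal followed at 72.7 ± 6.50, and then Tac2 at 58.0 ± 6.41 and Pomc at 55.8 ± 11.4 CPM per kb, whose ranges overlapped. The range of Pomc also met that of Gal. Avp, Oxt and Penk lay together at 18.1 ± 3.75, 17.8 ± 2.05 and 16.7 ± 3.76 CPM per kb. Tac1 had 6.51 ± 1.30 and Cartpt 0.743 ± 0.283 CPM per kb, the latter above only 5.21% of the tested genes.
Cartpt was again lowest in the other control groups, at 2.30 ± 2.69 CPM per kb in the WT for Fezf2 and 3.15 ± 1.11 in the Chd4 control. Npy led in the WT for Fezf2 at 194 ± 106 CPM per kb, though its range overlapped those of Nts, Gal and Pomc. Gal, Nts and Pomc led in the Chd4 control at 126 ± 1.33, 124 ± 16.8 and 117 ± 15.2 CPM per kb. Npy had a lower mean than Tac2 there, at 56.4 ± 25.6, but their ranges overlapped. Exon lengths of the members were the same in all tables except for Tac1, at 3399 bases in the Aire and Fezf2 tables and 1527 in that of Chd4. Its level per kilobase is therefore not comparable between them.

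Setting the Aire KO-labelled libraries against their WT asked how far the precursors' transcripts depend on Aire. Of the 10 members, 9 had enough reads to be tested and all 9 were lower, while 9.37% of the 14949 genes tested were lower and 5.73% higher. Their loss ran from 6.53-fold for Tac1 to a ratio of 337 for Tac2, and Avp and Oxt had no reads left. The tested members' median log2 fold change was -5.48, or -5.38 with Avp and Oxt taken at their bounds, beside a median of 0 over all tested genes. For all 9, the 3 Aire KO-labelled libraries lay below the 3 WT libraries, as they did for 17.1% of all tested genes. Fewer cells that transcribe a gene and less RNA of it per cell cannot be told apart in these bulk samples.

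**Figure D1:**
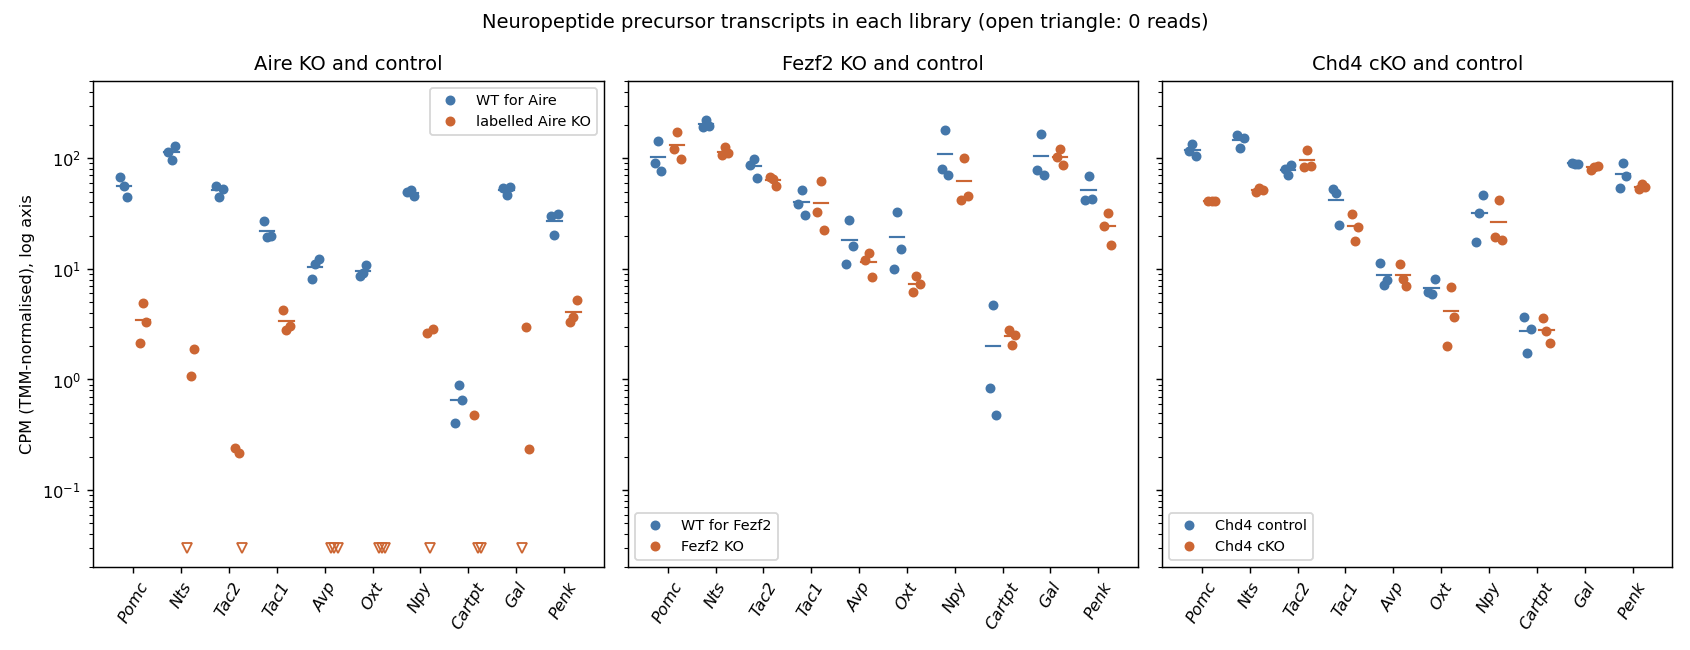
Normalised CPM (log axis) of the 10 precursor genes in each library, with controls in blue and knockouts in orange, a short line at the mean of groups without a zero, and open triangles at the bottom for libraries with 0 reads. In the left panel all 9 tested genes have every orange point below every blue one, and Avp and Oxt have 3 open triangles each.

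Pomc (ENSMUSG00000020660, chr12:3954951-3960618), the precursor of corticotropin, melanocyte-stimulating hormones and beta-endorphin, had 67.8, 55.9 and 44.9 CPM in the WT for Aire and at 2.14, 4.93 and 3.31 CPM in the Aire KO-labelled libraries. Its log2 fold change was -4.00 ± 0.28 (SE, adjusted p = 2.04e-06), with reads left in every library. Penk (ENSMUSG00000045573, chr4:4133531-4138819), the precursor of the enkephalins, fell from 30.3, 20.2 and 31.3 CPM to 3.33, 3.64 and 5.20 CPM (log2 fold change -2.74 ± 0.30, adjusted p = 4.68e-05). Penk kept 14.9% of its mean WT level and Pomc 6.16%, a difference between genes that was not tested. Another gene of the Aire and Fezf2 tables, A830012C17Rik, overlaps Penk, and how the counting treated strand is not given, so the Penk counts there are less certain. Both precursors encode the Met-enkephalin sequence, the opioid core, in 1 copy in Pomc and 6 in Penk with its extended forms counted. The stretches below, from GENCODE transcripts on GRCm38, are the Pomc copy (chr12:3960373-3960387, plus strand, exon 3 of 3) and the first Penk copy (chr4:4134334-4134348, minus strand, exon 2 of 2). They are shown since both genes encode this peptide sequence, which in Pomc is part of beta-endorphin. Capitals mark the only base that differs.
Pomc: tacggTggcttcatg
Penk: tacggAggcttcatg

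Nts (ENSMUSG00000019890, chr10:102481760-102490418), which encodes neurotensin and neuromedin N, was the highest of the 10 per kilobase in this WT and fell to near the floor. It stood at 114, 96.0 and 129 CPM in the WT and at 0, 1.07 and 1.89 CPM in the Aire KO-labelled libraries, a log2 fold change of -6.80 ± 0.36 (adjusted p = 2.03e-07).

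Both tachykinin genes fell, and they kept unlike shares of their WT levels. Tac2 (ENSMUSG00000025400, chr10:127724478-127731767), the precursor of neurokinin B, stood at 55.7, 44.9 and 53.1 CPM in the WT and kept 1, 1 and 0 reads in the Aire KO-labelled libraries. Its 722 and 2 reads, over the normalised library sizes, gave a ratio of 337, with an exact 95% counting interval of 92.8 to 2785. Its fitted log2 fold change was -8.15 ± 0.39 (adjusted p = 8.54e-08). Tac1 (ENSMUSG00000061762, chr6:7554879-7565834), the precursor of substance P and neurokinin A, went from 27.2, 19.5 and 19.6 CPM to 4.29, 2.79 and 3.07 CPM. At a log2 fold change of -2.71 ± 0.31 (adjusted p = 7.13e-05) it kept 15.3% of its mean WT level, the highest share among the 9 tested members, where Tac2 kept 0.294%.

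Avp and Oxt were the members without a read. Avp (ENSMUSG00000037727, chr2:130580620-130582554) encodes vasopressin, the antidiuretic hormone, and Oxt (ENSMUSG00000027301, chr2:130576173-130577054) encodes oxytocin, and the 2 genes lie 3565 bases apart with no other gene of the table between them. Avp had 8.07, 11.0 and 12.3 CPM in the WT for Aire and had 0 reads in all 3 Aire KO-labelled libraries. With 3 reads over the group as the floor, or 0.229 CPM, it was at least 45.4-fold lower (adjusted p = 8.28e-05). Oxt stood at 8.68, 9.20 and 10.8 CPM and had 0 reads in the same 3 libraries, a bound of at least 41.6-fold lower (adjusted p = 9.08e-05). Both stood lowest among the tested members in CPM in this WT, so these bounds are set by the depth.
The coding stretches of the mature hormones show how close the 2 genes are. They lie in exon 1 of 3 of each gene on GRCm38, at chr2:130582446-130582472 on the minus strand for Avp and at chr2:130576267-130576293 on the plus strand for Oxt. Capitals mark the 5 of 27 bases that differ.
Avp: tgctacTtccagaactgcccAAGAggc
Oxt: tgctacAtccagaactgcccCCTGggc
Farther on, the transcripts share an identical run of 127 bases, and 14.8% of the 50-base windows of Avp and 16.0% of those of Oxt occur in the other. How reads that match both places were counted is not given, so part of the counts could have been assigned to either gene. No other pair of the members shared more than 14 bases in a row.

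Npy (ENSMUSG00000029819, chr6:49822710-49829507), the appetite-promoting neuropeptide Y, stood at 49.7, 51.6 and 45.3 CPM in the WT and at 2.62, 0 and 2.84 CPM in the Aire KO-labelled libraries (log2 fold change -4.77 ± 0.45, adjusted p = 1.73e-05). Cartpt (ENSMUSG00000021647, chr13:99898484-99900683), the precursor of the appetite-suppressing CART peptides, had only 2, 4 and 3 reads in the WT and 2, 0 and 0 in the Aire KO-labelled libraries. It did not pass the filter on low counts, and its ratio of 4.20 with an exact 95% interval of 0.869 to 39.9 gives no direction. Gal (ENSMUSG00000024907, chr19:3409919-3414472), which encodes galanin, stood at 53.7, 46.4 and 55.0 CPM and fell to 0, 3.001 and 0.237 CPM (log2 fold change -5.48 ± 0.51, adjusted p = 1.52e-05). The remaining Npy and Gal reads were uneven: library B held 0 of the 23 Npy reads and 14 of the 15 Gal reads. Without it the log2 fold change was -8.46 for Gal and -4.14 for Npy, and without library C that of Nts was -7.57, so the sizes moved with single libraries, while all 3 calls held. Without library B, only 1 Gal read was left in the group.

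Markers of other cells were compared in the same libraries. Thymocyte markers summed to 58.1 to 122 CPM in the WT for Aire and 60 to 106 CPM in the Aire KO-labelled libraries, with none of 10 called. Of the 8 genes of neural crest, Schwann cells and neurons, 4 were tested and 3 were lower, Sox10 and Stmn2 among them. Their list summed to 33.3 to 38.6 CPM in the WT and 20.1 to 27.9 CPM in the Aire KO-labelled libraries, and only 1 of the 8 was without a read there. Fibroblast markers summed to 219 to 266 CPM in the WT and 351 to 448 CPM in the Aire KO-labelled libraries, with Dcn and Lum higher and Col1a1, Col1a2, Col3a1 and Pdgfrb lower of 6 tested, and none of the 7 was without reads. Endothelial markers summed to 18.6 to 25.3 and 43.3 to 49.3 CPM, with Pecam1 higher of 3 tested and none of the 4 without reads. Of the 10 mTEC markers, Aire, Cd80, Fezf2 and H2-Aa were higher and Ccl21a, Epcam and Krt5 lower. B cell markers summed to 41.4 to 44.7 and 27.2 to 36.9 CPM, with none of 5 called. Enpep was lower among 5 markers of cortical epithelium and Csf1r among 3 tested myeloid and dendritic ones. The part of these lists in the loss of the precursors was not tested.

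**Figure D2:**
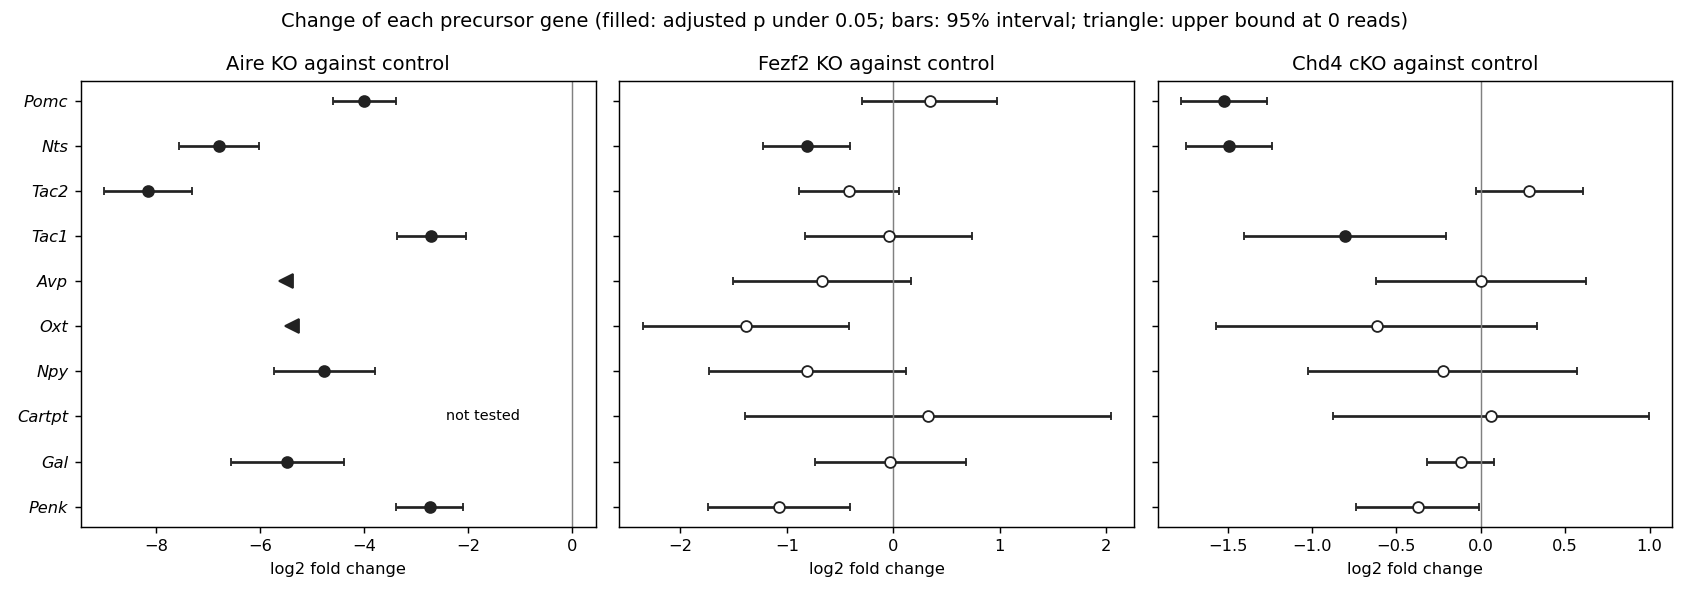
Log2 fold change of each precursor gene in the 3 comparisons, with 95% intervals as bars, filled points for genes past the threshold and triangles for the upper bound where the knockout group had 0 reads. The horizontal scales differ between panels, and Tac2 at -8.15 and Pomc at -4.00 in the Aire panel lie far outside the range of the other panels.

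Promoters were read from RefSeq windows on GRCm38.p6, of 250 bases before to 50 after the start site. Of the 10 members 9 matched: Penk, which fell in the Aire comparison, did not, and Cartpt, which was not tested there, did. CpG counts per window ran from 3 in Nts and Tac2 to 24 in Npy among the 8 matched members that fell, and Cartpt had 26, beside a median of 7 over all 32851 windows. The motif TATAAA, searched on both strands, was found in 1 member, Pomc, and in 13.6% of all windows, and the cyclic AMP response element TGACGTCA in 1, Cartpt, and in 1.79%. The shorter ATAAA in the last 40 bases before the start, on either strand, chosen after the stretches had been seen, was found in 5 members (Pomc, Tac1, Avp, Oxt and Npy) and in 8.42% of all windows. The 120 bases before the start site are shown for Avp (chr2:130582589-130582708, minus strand), Oxt (chr2:130576049-130576168, plus strand), Pomc (chr12:3954825-3954944, plus strand) and Nts (chr10:102490419-102490538, minus strand), as the neighbouring pair without reads, a gene that kept reads in every library and a gene that was near the floor. These motifs are in capitals. A match is a description of the letters and names no site of a factor.
Avp: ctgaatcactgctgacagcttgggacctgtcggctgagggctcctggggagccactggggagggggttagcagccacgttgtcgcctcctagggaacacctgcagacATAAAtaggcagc
Oxt: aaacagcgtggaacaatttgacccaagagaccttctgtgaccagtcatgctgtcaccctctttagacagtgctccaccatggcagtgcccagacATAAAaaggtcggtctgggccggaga
Pomc: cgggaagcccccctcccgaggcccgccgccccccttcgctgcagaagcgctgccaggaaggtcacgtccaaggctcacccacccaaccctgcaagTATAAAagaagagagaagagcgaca
Nts: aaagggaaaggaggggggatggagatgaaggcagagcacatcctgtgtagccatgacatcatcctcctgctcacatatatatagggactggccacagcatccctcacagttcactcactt
Nts held none of the 3 motifs in this window, and Pomc held TATAAA close before the start. The search took exact letters only, so near forms, such as the run of alternating t and a in the Nts stretch, were not counted.

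In the Fezf2 KO, only Nts among the 10 members passed the threshold. Of the 15695 genes tested there, 2.4% were lower and 2.48% higher, and 3 members (Nts, Oxt and Penk) had all 3 KO libraries below all 3 WT libraries, beside 13.4% of all tested genes. Nts stood at 191, 221 and 197 CPM in this WT against 107, 127 and 112 CPM in the KO, so that 56.8% of its mean level remained. The log2 fold change was -0.82 ± 0.18 (adjusted p = 0.0343). This call was lost when WT library A or C, or any of the KO libraries, was left out, with the log2 fold change between -0.89 and -0.75 in all alternatives and adjusted p up to 0.191. Without the WT library B it was -0.75 (adjusted p = 0.00133).

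Penk and Oxt were lower in every KO library without passing. Penk stood at 41.9, 69.2 and 42.6 CPM in the WT and at 24.3, 32.1 and 16.5 CPM in the KO (log2 fold change -1.07 ± 0.30, adjusted p = 0.0739). Without the WT library B it was -0.79 and passed at an adjusted p of 0.0471. Oxt stood at 10.1, 32.7 and 15.2 CPM in the WT and at 6.12, 8.64 and 7.34 CPM in the KO (log2 fold change -1.38 ± 0.44, adjusted p = 0.109), and without library B its log2 fold change was -0.77 (adjusted p = 0.166). DESeq2 called both lower along with Nts.

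The other 7 members did not pass, and their intervals were wide. Avp stood at 11.1, 27.8 and 16.1 CPM in the WT and at 12.1, 13.8 and 8.49 CPM in the KO, with a 95% interval of its log2 fold change of -1.50 to 0.16. Npy stood at 80.7, 179 and 70.3 CPM against 41.6, 101 and 46.1 CPM, an interval of -1.73 to 0.12, and both groups had 1 library far above the rest. Tac2 stood at 87.8, 99.0 and 66.9 CPM against 68.0, 65.4 and 56.2 CPM, an interval of -0.89 to 0.05. These 3 genes had lower means in the KO, but their groups overlapped.
Gal stood at 78.2, 168 and 70.8 CPM in the WT and at 103, 120 and 86.5 CPM in the KO, an interval of -0.74 to 0.68. Without WT library B all 3 KO libraries lay above the WT, and its log2 fold change turned from -0.03 to 0.47 (adjusted p = 0.0629). Pomc stood at 91.2, 143 and 76.8 CPM against 121, 173 and 98.9 CPM, with a log2 fold change of 0.34 ± 0.28 (adjusted p = 0.562) that became 0.64 (adjusted p = 0.0574) without library B. Tac1, at 38.99, 51.6 and 30.8 CPM against 33.0, 61.7 and 22.7 CPM, had a log2 fold change of -0.05 with an interval of -0.83 to 0.74. Cartpt stood at 0.839, 4.72 and 0.481 CPM against 2.80, 2.06 and 2.52 CPM, with 18 of its 24 WT reads in library B.
Without that library the log2 fold changes of the remaining 5 were -0.24 for Avp, -0.27 for Npy, -0.29 for Tac2, 0.17 for Tac1 and 1.84 for Cartpt, none of which passed.

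**Figure D3:**
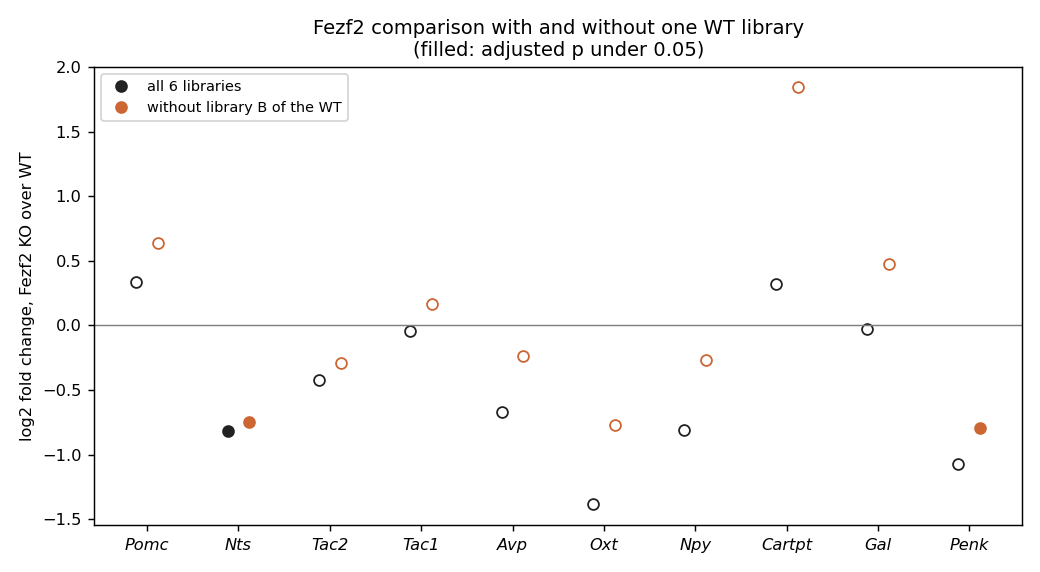
Log2 fold change of the 10 precursor genes in the Fezf2 comparison from all 6 libraries (black) and without library B of the WT (orange), filled where the adjusted p is under 0.05. All orange points lie above their black ones, with Nts filled in both and Penk only without library B.

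Library B of this WT held 1.14 (Nts) to 7.14 (Cartpt) times the mean of libraries A and C, with Gal at 2.25, Npy at 2.37 and Oxt at 2.6. Leaving it out raised the genes past the threshold in this comparison from 765 to 2034, with 6.06% of the 16194 genes then tested lower and 6.5% higher. Thymocyte markers also differed between the groups: they summed to 344 to 658 CPM in the WT for Fezf2 and to 160 to 214 CPM in the KO, where Cd3d, Cd8a, Cd8b1, Dntt and Lck were lower of 10 tested, or 8 of the 10 without library B. B cell markers summed to 50.5 to 85.4 and 32.8 to 39.7 CPM, myeloid and dendritic markers to 917 to 1178 and 551 to 806 CPM, cortical epithelium markers to 794 to 1130 and 1318 to 1999 CPM, and fibroblast markers to 151 to 218 and 233 to 307 CPM. Of these 4 lists only Lum was called, higher, and of the mTEC markers Krt5 was higher and Fezf2 lower. Their part in these results was not tested. None of the 8 tested genes of neural crest, Schwann cells and neurons was called, at sums of 32.5 to 46.9 and 35.3 to 44.7 CPM, with all 8 detected in both groups.

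In the Chd4 cKO, Pomc and Nts fell to 34.8% and 35.5% of their control levels, Tac1 fell to 57.9%, and the other 7 members did not pass. The 3 lower members of 10 stand beside 14.3% lower and 14.3% higher among the 15182 genes tested. Pomc stood at 116, 135 and 104 CPM in the control against 41.3, 41.0 and 41.1 CPM in the cKO, with no overlap. Its log2 fold change was -1.52 ± 0.11 (adjusted p = 1.46e-05), so that 34.8% was left. Nts stood at 161, 124 and 153 CPM in the control against 49.9, 54.4 and 51.2 CPM in the cKO, again with no overlap (log2 fold change -1.49 ± 0.12, adjusted p = 1.63e-05, 35.5% left). Pomc and Nts passed under all alternatives tried.

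Tac1 stood at 52.3, 48.7 and 25.1 CPM in the control against 31.1, 17.98 and 24.0 CPM in the cKO. The groups overlapped, since control library C lay among the cKO libraries. The log2 fold change was -0.80 ± 0.27 (adjusted p = 0.0476), and the call was lost without control library A or B, without cKO library B or C, and with the spread shared over all groups, where adjusted p reached 0.177. Tac2, the other tachykinin gene, stood at 79.3, 71.0 and 86.1 CPM in the control against 83.8, 118 and 85.0 CPM in the cKO (log2 fold change 0.29, 95% interval -0.03 to 0.61).

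Gal stood at 90.9, 89.6 and 89.0 CPM in the control and 78.8, 84.2 and 85.0 CPM in the cKO. Its 3 cKO libraries all lay below the control, but its log2 fold change of -0.12 had an interval of -0.32 to 0.08. With Pomc and Nts it made 3 members whose cKO libraries were all below the control, beside 22.1% of all tested genes. Penk stood at 53.7, 91.5 and 69.4 CPM in the control and 52.8, 58.3 and 54.6 CPM in the cKO (interval -0.74 to -0.01, adjusted p = 0.116), and passed at 0.0252 without control library A. Avp, at 11.2, 7.17 and 7.90 CPM against 11.1, 8.03 and 7.07 CPM, had a log2 fold change of 0.00 with an interval of -0.62 to 0.62. Oxt stood at 6.19, 5.94 and 8.13 CPM against 2.01, 6.91 and 3.64 CPM, an interval of -1.57 to 0.33. Npy stood at 17.4, 31.9 and 46.4 CPM against 19.4, 41.8 and 18.4 CPM, an interval of -1.02 to 0.57. Cartpt stood at 3.66, 1.73 and 2.87 CPM against 3.59, 2.75 and 2.14 CPM, an interval of -0.873 to 0.997.
Genes of neural crest, Schwann cells and neurons summed to 43.0 to 43.6 CPM in the control and 69.4 to 80.2 CPM in the cKO, with Sox10 and Stmn2 higher, Snap25 lower and none of the 8 without reads. Myeloid and dendritic markers summed to 990 to 1194 CPM in the control and 514 to 682 CPM in the cKO, where Flt3 and Lyz2 were lower of 4 tested. Aire itself was lower, at 1018 to 1047 CPM in the control against 766 to 827 CPM in the cKO (log2 fold change -0.39 ± 0.07, adjusted p = 0.00294), and among the other mTEC markers Fezf2, Krt5, Krt14 and Ccl21a were higher. B cell markers summed to 51.4 to 56.8 and 78.5 to 99.6 CPM, with Cd79b higher of 5 tested. Lum was higher and Col1a1 and Col3a1 lower of 6 fibroblast markers tested, and Ly75 was higher and Ccl25 lower of 5 markers of cortical epithelium. Their part in the results for the precursors was not tested.

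The differences between the effects were tested themselves. Relative to the Aire effect, the Fezf2 effect was higher for 9 of the 10 members in a fit of 12 libraries, where 8.73% of 16532 genes were higher, and all 9 also passed without library B of the WT for Fezf2. The Chd4 effect was higher than the Aire effect for the same 9 in a fit of 18 libraries, where 11.4% of 16169 genes were higher and the median of all genes was 0.12. Cartpt was the exception in both, with 95% intervals of -0.95 to 5.33 and -0.81 to 4.80. The smallest of the differences was that of Penk between Fezf2 and Aire, at 1.65 ± 0.43 on the log2 scale (adjusted p = 0.0182), which no longer passed without library A or B of Aire KO or library B of the Fezf2 KO. The differences for Avp and Oxt rest on a group with 0 reads and have no fixed size. That of Tac1 between Chd4 and Aire rests on counts over unlike exon lengths.
Chd4 and Fezf2 effects differed in Pomc and, at the edge of the threshold, in Tac2. Pomc was lower under Chd4 by 1.82 ± 0.33 on the log2 scale relative to Fezf2 (adjusted p = 7.52e-04), where 6.87% of genes were lower. That difference was between -2.13 and -1.58 in all alternatives and passed in each. Tac2 was higher under Chd4 relative to Fezf2 by 0.74 ± 0.25 (adjusted p = 0.0498), where 8.03% of genes were higher, and lost its call in 17 of 21 alternatives. Nts, called lower in both comparisons, differed by -0.63 with an interval of -1.21 to -0.05 (adjusted p = 0.137). It passed in 3 of 21 alternatives: with DESeq2, without library A of Aire KO and without library B of the WT for Fezf2.

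The separate WT groups, both C57BL/6, were set against each other. Every one of the 9 members tested had a mean above that of the WT for Aire in the WT for Fezf2, by 0.67 (Tac2) to 1.12 (Npy) on the log2 scale. None passed in edgeR, where 0.0958% of 15656 genes were called higher. At an unadjusted p under 0.05 stood 8 of these members, beside 1870 of the 15656 genes in either direction. DESeq2 called Nts and Npy among 383 genes in all, against 20 in edgeR. Without library B of the WT for Fezf2, Nts and Npy passed in edgeR among 636 genes in all. Thymocyte markers summed to 58.1 to 122 CPM in the WT for Aire and 344 to 658 CPM in the WT for Fezf2, and Cd8a, Cd8b1, Lck and Dntt were 4 of the 15 genes called higher, by 3.25, 3.61, 2.07 and 3.28 on the log2 scale. Their part in the levels of the precursors was not tested.

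The genes around the neuropeptide precursors were read from lists chosen with earlier results of these data known. Among 34 other neuropeptide precursors, 18 were tested in the Aire comparison, of which 11 were lower and 2 higher, with a median log2 fold change of -2.85. The shares over all tested genes given above, 9.37% lower and 5.73% higher for Aire, 2.4% and 2.48% for Fezf2, and 14.3% and 14.3% for Chd4, stand beside this and each further list. Ppy (pancreatic polypeptide) fell from 35.8 ± 11.4 CPM to 0 reads and was at least 156-fold lower. Sst (somatostatin) had 17.2 ± 1.75, Vip (vasoactive intestinal peptide) 9.04 ± 3.03 and Pnoc (nociceptin) 3.29 ± 1.10 CPM in the WT, and all 3 had 0 reads in the Aire KO-labelled libraries, at least 75.2-fold, 39.8-fold and 14.3-fold lower. Trh (thyrotropin-releasing hormone) went from 193 reads to 1, a ratio of 180 with an exact 95% counting interval of 31.9 to 7145. Nms (neuromedin S) went from 87 reads to 1, a ratio of 81.1 with an interval of 14.2 to 3241. Calcb and Tac4, named after their values were seen, went the other way. Calcb, which encodes a calcitonin gene-related peptide and stood above all 10 members in CPM, rose from 717 ± 126 to 1245 ± 161 CPM (log2 fold change 0.80, adjusted p = 0.00181). Tac4, the third tachykinin gene, rose from 11.2 ± 3.0 to 26.1 ± 3.97 CPM (log2 fold change 1.22, adjusted p = 0.00483), in the libraries in which Tac1 and Tac2 fell.

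In the Chd4 cKO, 20 of these other precursors were tested, 13 of them lower and 2 higher, with a median log2 fold change of -1.23. Adcyap1, the precursor of the peptide PACAP, fell most, from 24.3 ± 5.29 to 4.21 ± 1.36 CPM, and Vip fell from 21.0 ± 6.47 to 5.27 ± 0.69 CPM. Sst fell from 30.8 ± 3.76 to 8.36 ± 1.82, Pnoc from 4.96 ± 0.58 to 1.11 ± 0.82, Nmb (neuromedin B) from 16.3 ± 2.33 to 4.71 ± 1.61 and Nms from 16.5 ± 1.84 to 4.81 ± 0.47 CPM. Grp (gastrin-releasing peptide) rose from 37.6 ± 2.76 to 73.6 ± 8.44 CPM and Tac4 from 12.7 ± 1.69 to 21.2 ± 2.32 CPM, both named after their values were seen. In the Fezf2 KO, 25 were tested and only Grp was lower, from 64.8 ± 23.2 to 24.9 ± 5.06 CPM (log2 fold change -1.37, adjusted p = 0.0241), with Calcb and Npvf also higher once the WT library B was left out.

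**Figure D4:**
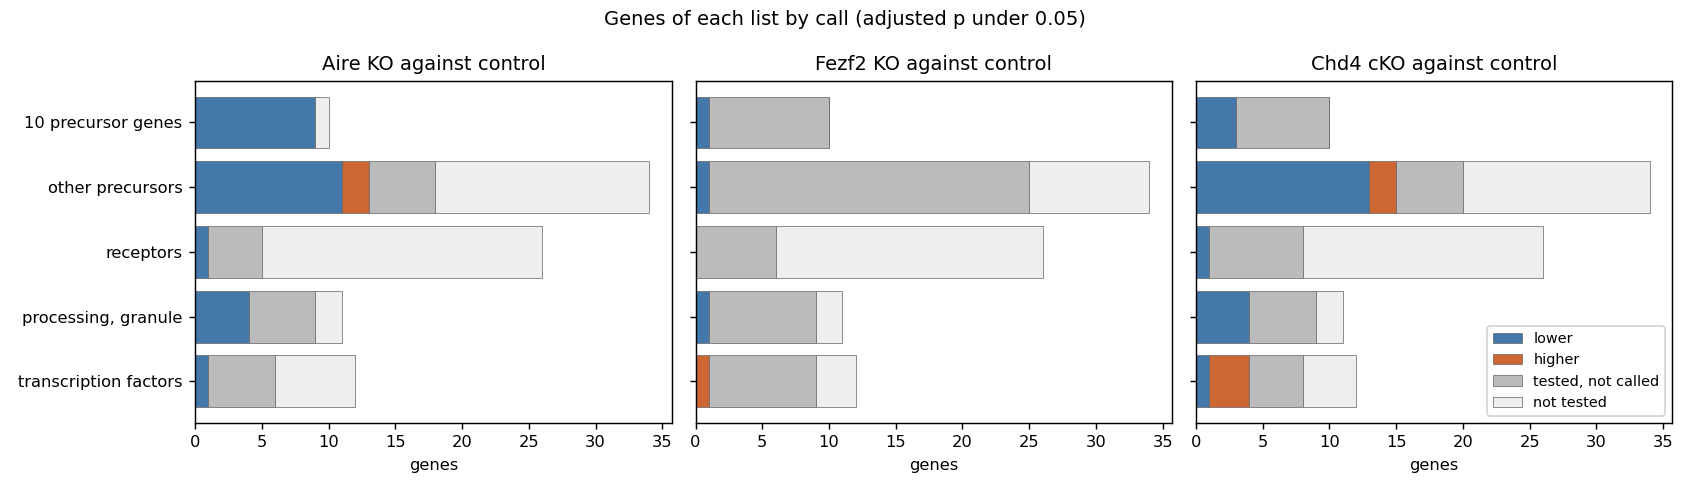
Number of genes of each list that were lower (blue), higher (orange), tested and not called (grey) or not tested (light) in the 3 comparisons. The blue share of the other precursors is large in the Aire and Chd4 panels, at 11 of 18 and 13 of 20 tested, and is 1 of 25 in the Fezf2 panel.

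Genes that turn precursors into peptides, or store them, were in part lower in the Aire comparison. Of the 11 processing and granule genes 9 were tested, and 4 were lower and none higher, with a median of -0.45. Scg2 (secretogranin II) fell from 20.8 ± 3.41 to 0.928 ± 0.870 CPM and Pcsk2, a prohormone convertase, from 5.41 ± 1.52 to 0.817 ± 0.638 CPM. Chgb (chromogranin B) fell from 16.6 ± 9.03 to 5.89 ± 0.31 CPM and Vgf, itself a granule precursor, from 38.5 ± 3.74 to 20.7 ± 6.21 CPM. In the Chd4 cKO 4 of 9 tested were lower: Scg2 and Vgf again, at log2 fold changes of -1.72 and -1.72, with Pcsk1, another convertase (-1.44), and Cpe, a carboxypeptidase that trims peptide ends (-0.78). In the Fezf2 KO, Chga (chromogranin A) was lower at -0.83 (adjusted p = 0.0428) of 9 tested.

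Receptors of the members' peptides were mostly too low to test. Of 26 matched, 5 were tested in the Aire comparison, where Avpr2, the renal vasopressin receptor, was lower with 56 reads in the WT and 3 in the Aire KO-labelled libraries, a ratio of 17.4 (exact 95% interval 5.66 to 86.9). Of 6 tested in the Fezf2 KO none was called. Of 8 tested in the Chd4 cKO, Oprd1, the delta opioid receptor, fell from 19.3 ± 9.42 to 2.62 ± 0.69 CPM.
Transcription factors of neuroendocrine cells came last. In the Aire comparison 6 of 12 were tested and only Hnf4a was lower, with 66 reads in the WT and 1 in the Aire KO-labelled libraries, a ratio of 61.5 (exact 95% interval 10.7 to 2467). In the Fezf2 KO Pax6 alone was called of 9 tested, higher from 1.37 ± 0.50 to 8.79 ± 1.47 CPM. In the Chd4 cKO Isl1, Neurog3 and Pax6 were higher, at log2 fold changes of 0.63, 1.62 and 1.70, and St18 lower at -1.58, of 8 tested.

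Neighbouring genes were counted for the members tested. In the Aire comparison, 8 of the 16 nearest neighbours that are no members were tested and 1 was lower. In the Fezf2 comparison 8 of 18 were tested and none was called, and in the Chd4 comparison 16 of 18 were tested, of which 3 were higher and 1 lower. These counts lie near the shares over all tested genes, 9.37% lower for Aire, and 14.3% higher and 14.3% lower for Chd4.

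The authors' deposited tables give their own tests of these genes. In the authors' deposited table of EDGE tests, 8 of the 10 members had a corrected p under 0.05 in the Aire comparison, with Tac1 at 0.249 and Cartpt at 1, and 1 in the Fezf2 comparison, Nts at 0.00533. The authors' deposited table of q values had 9 members under 0.05 for Aire, all but Cartpt at 0.623, and 3 for Chd4: Pomc, Nts and Tac1, the last at 0.0222. For Fezf2 that deposited table of the authors had 2, Nts at 0.00138 and Penk at 0.0253, with Oxt at 0.0657. The shares of all genes under 0.05 in these deposited tests were not computed, so these counts stand without a background.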

How the data were processed

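Total RNA of sorted mTECs was sequenced with a low-input SMART-seq kit, per the labels' protocols, as single trimmed Ion Torrent reads, per the file headers. The authors deposited raw counts of exon reads per gene and library. No source used here gives the aligner, the strand setting or the treatment of reads matching several places. Per the submitters' processing notes the builds were mm10 and GRCm38, and DESeq2 was used. The deposited tables also hold the authors' corrected p-values of an EDGE test and q-values, which were copied and not recomputed. Columns name a group and a barcode without a replicate number and were mapped to groups only, and 216 further per-library columns were not used. Nothing says whether the triplicates are separate mice, so p-values measure only how these libraries vary, which may be technical. Run strings in the headers put Chd4 in a different run from Aire and Fezf2, so run and comparison cannot be told apart.

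The members and lists were chosen with earlier results of these data known. The 6 libraries of a comparison were fitted with edgeR 4.0.16 (R 4.3.3; TMM, filterByExpr, quasi-likelihood F test). Calls took an adjusted p (Benjamini-Hochberg over all genes tested) under 0.05. Standard errors are the log2 fold change divided by the square root of F. A group with 0 reads was given a floor of 3 reads over the group. Ratios over 1 to 3 reads were scaled by normalised library sizes and given an exact binomial 95% interval, which covers counting error only. Differences of effects were contrasts in joint fits over 12 libraries (Aire, Fezf2) or 18 (21875 shared gene IDs). Alternatives were DESeq2 1.42.0, its size factors in edgeR, other filters, a shared spread and leaving out each library. All 10 members were named, with list genes past the threshold (the 6 with the largest change where more passed). Scripts were tested on simulated data. Sequences are from RefSeq and GENCODE on GRCm38. Starts of the deposited positions were raised by 1. Values of some list genes are not reported here.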

Additional observations from a re-analysis of the deposited data

Results flagged for a closer look

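Differences between the effects of 2 knockouts on the same gene passed the threshold for these members, on the log2 scale. The Fezf2 effect exceeded the Aire effect by 4.31 for Pomc, 5.95 for Nts, 7.71 for Tac2, 2.64 for Tac1, 3.93 for Npy, 5.42 for Gal and 1.65 for Penk. For Avp and Oxt the fitted values were 7.93 and 7.09, which depend on a group with 0 reads and give only a direction. The Chd4 effect exceeded the Aire effect by 2.49 for Pomc, 5.33 for Nts, 8.50 for Tac2, 1.93 for Tac1, 4.55 for Npy, 5.38 for Gal and 2.39 for Penk, with fitted values of 8.93 for Avp and 8.17 for Oxt under the same limit. Tac1 was counted over unlike exon lengths for Chd4 and Aire, so its value here sets effects over unlike stretches against each other. The Chd4 effect differed from the Fezf2 effect by -1.82 for Pomc and by 0.74 for Tac2. Leaving out 1 library labelled Aire KO moved some of these by over 1.5 times. Without library B, Gal was at 8.43 for both Fezf2 and Chd4 against Aire, and Npy at 3.32 and 3.94. Without library C, Nts was at 6.75 and 6.13. Groups of 3 were too small for a test of single outlying libraries.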

How the results depend on the processing

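No paired analysis was possible because the count columns carry no replicate numbers. The 9 calls of members in the Aire comparison (7 with the stricter filter, which left out Avp and Oxt), those of Pomc and Nts for Chd4 and that of Pomc between Chd4 and Fezf2 kept their direction and their side of the threshold under all alternatives run. Genes past the threshold numbered 3466 without a filter and 1282 with the stricter filter for Aire (2257 in the reported fit), and 2375 with a shared spread for Chd4 (4339). For Fezf2 (765) they numbered 1274 with DESeq2, 1387 without a filter, 1460 with a shared spread and 169 to 2034 leaving out a library. Members lower for Fezf2 numbered 3 with DESeq2, without a filter and with a shared spread, and 0 to 2 leaving out a library. Between Chd4 and Fezf2, members lower numbered 2 with DESeq2 and 1 to 2 leaving out a library, and members higher 0 with DESeq2 size factors, 0 without a filter and 0 to 1 leaving out a library. Between the WT groups (20) genes numbered 383 with DESeq2, 455 without a filter and 0 to 636 leaving out a library, and members higher 2, 2 and 0 to 2.
Signs of uncalled values turned. Leaving out a library, log2 values ranged from -0.53 to 0.23 for Tac1, -0.13 to 1.84 for Cartpt and -0.24 to 0.47 for Gal under Fezf2, from -0.19 to 0.23 for Avp, -0.75 to 0.16 for Npy and -0.17 to 0.32 for Cartpt under Chd4, and from -1.77 to 0.24 for Cartpt and -0.56 to 0.17 for Gal between Chd4 and Fezf2. With the stricter filter Avp under Chd4 was -0.0338. The cause was not tested. Depth limits the bounds of Avp and Oxt and left Cartpt untested for Aire.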
